A study of Mus musculus with 8 samples.

Results

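Matrix metalloproteases (Mmp), the secreted Adamts proteases, the Adamts-like (Adamtsl) proteins and the tissue inhibitors of metalloproteases (Timp) were compared between mouse kidney tumors and control kidneys. The members were all probes whose gene symbol in the platform annotation begins with Mmp or Timp and a digit, or with Adamts. This rule, which used no measured value, gave 53 of 25697 probes, or 40 of 16593 named genes. There were 27 probes for 20 Mmp genes, 18 for 14 Adamts genes, 2 for 2 Adamtsl genes and 6 for 4 Timp genes.

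Kidney tumors from 4 animals carrying a Lin28 transgene, which the labels call Wilms tumors, were set against 4 normal kidneys, each on 1 single-colour Illumina bead array. Lin28 binds RNA and keeps let-7 microRNAs from maturing. Tumor 1 and control 1 were from animals aged 5 weeks, and tumors 2 to 4 and controls 2 to 4 from animals aged 4 months. The sources used here do not give the promoter of the transgene, the tumor cells that carry it, the genotype of the controls, the strain or the sex. The labels call the arrays of a group biological replicates.

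Values are linear intensities from which the authors had subtracted background, so values below 0 occur, and which had the same mean on all 8 arrays. A probe counted as above background on an array where it exceeded 3 times the noise of that array, a limit between 10.7 and 27.6 intensity units that was highest for tumor 1. Between 44.2% and 55.3% of all probes passed it. Summed tissue markers followed the labels with 1 exception. The summed intensity of 7 proximal tubule markers was 1725, 2196 and 764.6 in tumors 2 to 4, 27435 in tumor 1, and 30257 to 52158 in the controls. That of 7 nephron progenitor markers, mostly Wt1 and Capn6 in the tumors, was 3318 to 7071 in the tumors and 249.8 to 475.7 in the controls. By the test described below 5 of these 7 rose, against 31.9% of all genes tested, and Sall1 and Pax2 did not pass. In tumor 2 Sall1 read 120.5, against 128.8 to 233.1 in the controls, and Pax2 read 7.4, under background. Xist, expressed from the inactive X chromosome of females, read 155 to 301 in the tumors and 2.20 to 34.8 in the controls, and the Y-linked Kdm5d read 44.7 to 53.7 in controls 1, 3 and 4, -5.60 in control 2 and at most 4.60 in the tumors. Control 2, with Xist above background and no Kdm5d signal, thus differed from the other controls in both markers and shared the pattern of the 4 tumors. Timp1, the X-linked member of the group, read 23.6 in control 2 and 246 to 3558 in the tumors. Uty, also Y-linked, separated the groups less. It read 24.8, 7.5, 12.4 and 25.1 in tumors 1 to 4 and 27.8, 10.3, 40 and 40.9 in controls 1 to 4. It was above background in tumors 3 and 4 and in controls 1, 3 and 4. The Y-linked Eif2s3y exceeded background on 0 of 8 arrays. By Xist and Kdm5d sex nearly followed the group, so its part in the results cannot be told apart from tumor state and was not tested.

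Matrix metalloproteases are zinc-dependent enzymes that are made as inactive precursors and cleave collagens, other matrix proteins and growth factors once a propeptide is removed. Adamts proteases share the metalloprotease domain, carry thrombospondin repeats, and cut proteoglycans, procollagens or von Willebrand factor. Adamts-like proteins have the repeats without the protease domain. Timps bind the active site of these enzymes and block it. In the kidney these proteins take part in branching of the ureteric bud, in turnover of basement membranes and in fibrosis.

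Differences were tested with limma on log2(intensity + 16), with Benjamini-Hochberg adjustment over all tested probes and a threshold of 0.05. A fold change on this scale understates the change of dim genes. Each gene is given by its brightest tested probe. After the dimmest probes were removed, 33 of the 53 member probes and 26 of the 40 genes were tested. Of these 26 genes 15 rose in the tumors, 1 fell and 10 did not pass (57.7% higher and 3.85% lower, against 31.9% higher and 12.1% lower among all 11413 genes and unnamed probes tested). By probe, 16 rose and 2 fell of 33, against 31.0% and 11.5% of all 15418 tested probes. The median change of the 26 genes was 1.62 log2 units, and that of all genes tested was 0.35. The groups did not overlap for 16 of the 26 genes, 15 of them higher and 1 lower in tumors, against 30.1% and 10.2% of all genes tested. For 5 of the 26 genes, Mmp3, Mmp10, Mmp12, Mmp16 and Adamts19, the mean of the controls alone was under the filter. They were tested only because the tumors were bright, and 4 of these 5, all but Mmp12, were called higher. Among the 11 member genes above background on all 8 arrays, 5 rose and 1 fell, against 32.2% and 14.7% of all such genes.

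With the authors' scaling 72.5% of all called genes were higher in tumors. With scaling to equal medians that share was 54.7%, with cyclic loess 50.1%, with quantile normalization 55.5% and with normexp correction before it 55.8%. Under these 4 settings between 12 and 14 member genes rose and 1 fell. In a bulk sample a lower level can come from fewer cells of a type or from less RNA in each of them, and the arrays cannot tell these apart.

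**Figure D1:**
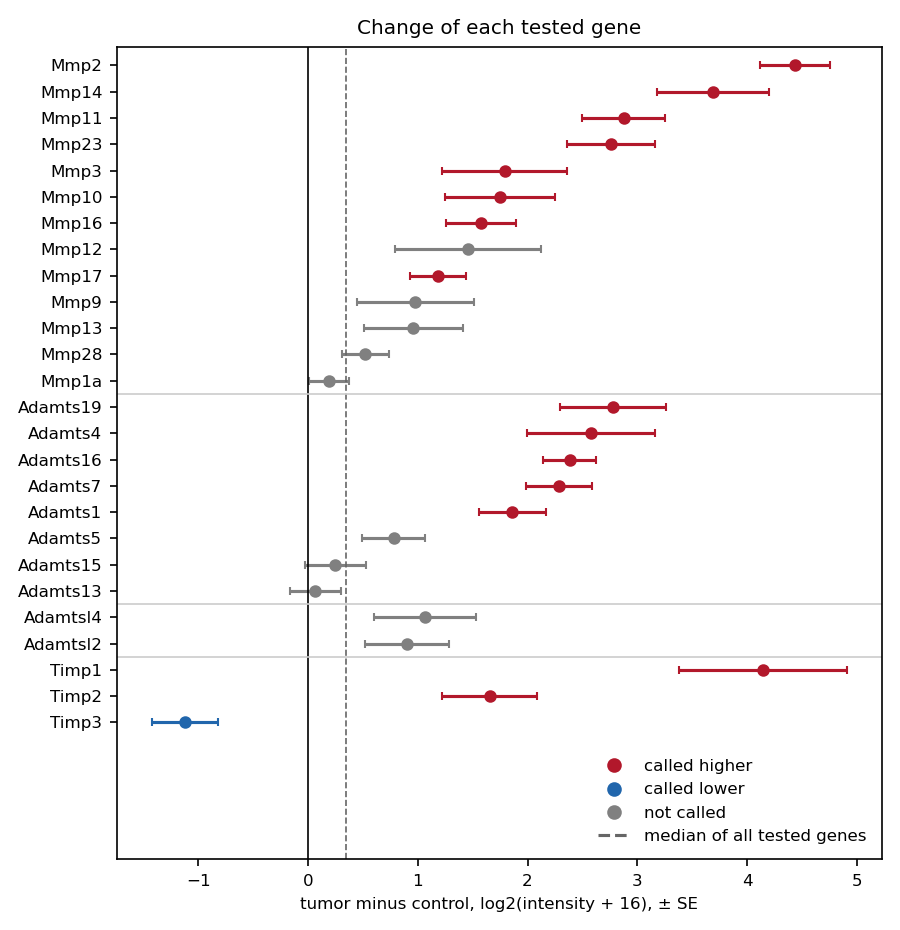
Difference between the means of 4 tumors and 4 controls in log2(intensity + 16) for the brightest tested probe of each of the 26 tested genes, with bars for the standard error, ordered by family. Red points were called higher (15 genes), the blue point called lower (Timp3), grey points did not pass, and the dashed line is the median of all tested genes, 0.35.

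The gelatinase Mmp2, which degrades denatured collagen and basement membrane collagen, had the largest rise of the family. It had intensities of 1922, 4965, 3582 and 2977 in tumors 1 to 4, against 93.0, 151, 110 and 190.5 in controls 1 to 4. Every tumor was about an order of magnitude or more above the highest control. The tumors averaged 3362 ± 1270 and the controls 136 ± 43.7 (SD, n = 4 each), a change of 4.44 ± 0.32 (SE) log2 units or 21.7-fold (limma adjusted p = 6.91e-05). Mmp14, the membrane-anchored protease that activates the Mmp2 precursor, had intensities of 789, 2903, 1654 and 1891 in the tumors, against 61.7, 160, 57.4 and 254.5 in the controls. The groups were again well apart, with a change of 3.69 ± 0.51 log2 units or 12.9-fold (adjusted p = 0.00104). Timp2, the inhibitor that bridges Mmp14 and the Mmp2 precursor on the cell surface, rose as well. Of the regulators given below, Furin, which activates the Mmp14 precursor, fell, and Reck, which inhibits Mmp2 and Mmp14, rose. Activation of Mmp2 was not measured.

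Mmp11, or stromelysin-3, is unusual in leaving the cell already active. It had intensities of 184, 528, 202 and 230 in the tumors, against 24.5, 45.5, 9.0 and 16.2 in the controls, with tumor 2 well above the other tumors. The change was 2.88 ± 0.38 log2 units or 7.34-fold (adjusted p = 8.41e-04). Mmp23, a protease held in the membrane by its propeptide, read 301, 750.4, 484 and 287 in the tumors and 36.2, 75.8, 20.6 and 83.5 in the controls. Its groups did not overlap, and it rose by 2.76 ± 0.41 log2 units or 6.78-fold (adjusted p = 0.00139).

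Among the other membrane-type enzymes, Mmp16 cleaves collagen and can activate Mmp2, and Mmp17 is attached by a lipid anchor. Mmp16 had intensities of 28.1, 10.3, 37.1 and 68.5 in the tumors, against -10.5, -3.40, -5.70 and -2.40 in the controls. It was above background in tumors 1, 3 and 4 and in no control, and was at least 1.66-fold higher in tumors (adjusted p = 0.00521). A second probe for Mmp16 was at or under background on all 8 arrays. Mmp17 read 48.8, 76.5, 40.5 and 35.7 in the tumors and 7.90, 13.8, 7.20 and 23.8 in the controls, a rise of 1.18 ± 0.25 log2 units (adjusted p = 0.00675). That call was lost with cyclic loess (0.68 log2 units, adjusted p = 0.0657) and with normexp correction (0.38, adjusted p = 0.0688). Mmp24, also of the membrane type, exceeded background on 0 of 8 arrays.

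The stromelysins Mmp3 and Mmp10, which cleave many matrix proteins and activate other Mmp precursors, were bright mainly in tumor 2. Mmp3 had intensities of 48.3, 264.5, 35.5 and 17.4 in the tumors, against 9.30, 8.00, 1.40 and 4.4 in the controls. All 4 tumors and no control were above background, and Mmp3 was at least 2.60-fold higher (adjusted p = 0.0319). It is the least stable call of the group. It was lost under 13 of 23 alternatives, among them all 4 other scalings and leaving out any 1 control (adjusted p = 0.0516 to 0.0801). Without tumor 2 the fitted change was 1.16 log2 units in place of 1.79 and still passed (adjusted p = 0.0129). The other probes for Mmp3 differed by 1.78 (adjusted p = 0.0502) and 0.95 (adjusted p = 0.200). Mmp10 read 23.1, 174.8, 42.3 and 15 in the tumors and 5.40, 1.40, 0.1 and 1.70 in the controls. It was above background in tumors 2 to 4 and in no control, and at least 2.11-fold higher (adjusted p = 0.0215). The Mmp10 call was lost with quantile normalization (adjusted p = 0.0534), cyclic loess (0.0773), normexp correction (0.135), 64 added before the logarithm (0.0784), no filter (0.0670) and without control 3 (0.0558).

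Mmp3 and Mmp10 belong to a cluster of Mmp genes that lie next to each other on chromosome 9, in the order Mmp13, Mmp12, Mmp1b, Mmp3, Mmp1a, Mmp10, Mmp8, Mmp27, Mmp20 and Mmp7 in the GRCm38.p6 annotation. Of the 9 that were measured, Mmp3 and Mmp10 rose, while Mmp12, Mmp13 and Mmp1a were tested and did not pass. Mmp1b, Mmp7, Mmp8 and Mmp20 were at or under background on all 8 arrays. Mmp12, the macrophage elastase, had intensities of 7.90, 266, 22.8 and 28.7 in the tumors, against 2.50, 3.10, 4.50 and 12.4 in the controls. Tumor 2 alone was bright, and the change of 1.46 ± 0.66 log2 units did not pass (adjusted p = 0.105). Mmp13, a collagenase of cartilage and bone, read 61.7, 193, 172 and 101.5 in the tumors and 40.6, 149, 40.4 and 31.6 in the controls. Control 2 lay within the range of the tumors, and the change was 0.96 ± 0.45 (adjusted p = 0.117). Mmp1a, the mouse counterpart of interstitial collagenase, was above background on all 8 arrays and differed by 0.19 ± 0.18 (adjusted p = 0.420).

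The promoters of this cluster are shown because most of those searched hold the AP-1 element, which Fos and Jun bind. This motif is long known from stromelysin and collagenase genes. RefSeq promoters on GRCm38.p6 were matched for 28 of the 40 member genes, and the 250 bases before each start were searched on both strands. The AP-1 element was searched as TGANTCA, the TATA box as TATAAA and the GC box as GGGCGG. An AP-1 element was found for 8 of the 28 genes, all 8 in the chromosome 9 cluster (Mmp1a, Mmp1b, Mmp3, Mmp7, Mmp10, Mmp12, Mmp13 and Mmp20), and in 6.75% of all 32851 promoters. Mmp8, also of the cluster, had no match, nor had the first start of Mmp12 and the second start of Mmp7. Members without a matched promoter, among them Mmp2 and Mmp9, were not searched. The last 100 bases before the start follow, 5′ to 3′ on the plus strand, with AP-1 elements, TATA boxes and GC boxes in capitals.
Mmp3, chr9:7445722-7445821: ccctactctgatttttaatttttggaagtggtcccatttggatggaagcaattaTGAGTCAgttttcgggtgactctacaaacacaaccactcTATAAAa
Mmp10, chr9:7502242-7502341: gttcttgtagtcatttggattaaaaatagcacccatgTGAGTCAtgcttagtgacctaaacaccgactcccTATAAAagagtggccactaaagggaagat
Mmp12, the start with a match, chr9:7347274-7347373: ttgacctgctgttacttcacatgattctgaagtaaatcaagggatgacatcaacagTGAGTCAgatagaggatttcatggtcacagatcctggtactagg
Mmp13, chr9:7272414-7272513: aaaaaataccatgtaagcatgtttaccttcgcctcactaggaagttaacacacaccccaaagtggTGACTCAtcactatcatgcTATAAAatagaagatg
Mmp14, chr14:54431498-54431597: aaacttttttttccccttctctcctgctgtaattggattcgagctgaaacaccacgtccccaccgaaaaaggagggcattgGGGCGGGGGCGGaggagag
Timp1, chrX:20870066-20870165: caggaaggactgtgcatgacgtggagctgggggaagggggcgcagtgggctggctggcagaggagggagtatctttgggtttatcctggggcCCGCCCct

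The AP-1 element begins 46 bases before the start of Mmp3, 63 before that of Mmp10, 44 before the second start of Mmp12 and 35 before that of Mmp13. A TATA box stands between the element and the start in Mmp3, Mmp10 and Mmp13 and is not found in the window of Mmp12. The windows of Mmp14 and Timp1, which rose more, hold GC boxes and neither of the other motifs. GC boxes were found for 13 of the 28 genes, among them Mmp11, Timp2 and Timp3 as well, and in 32.7% of all promoters. TATA boxes were found for 10 of the 28 genes and in 12.4% of all promoters. Of the 8 genes with an AP-1 element 2 rose, 3 did not pass and 3 were at or under background on all arrays. Among all genes tested 31.9% rose. The 2 that rose, Mmp3 and Mmp10, were tested only because the tumors were bright, and both calls were lost under some other scalings. Whether the element had a part in the changes was not tested. These matches describe the letters of the windows.

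The remaining Mmp genes did not pass or were too dim to be tested. Mmp9, the second gelatinase, had intensities of 23.0, 213, 17.1 and 55.9 in the tumors and 18.9, 18.1, 16.7 and 20.4 in the controls. Only tumors 2 and 4 were clearly above the controls, and the change was 0.98 ± 0.53 (adjusted p = 0.169). Mmp28, or epilysin, differed by 0.52 ± 0.22 (adjusted p = 0.0797). Mmp19 exceeded background only in control 4, at 11.4, and Mmp21 on no array. In all, 6 of the 20 Mmp genes had no probe above background on any array.

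**Figure D2:**
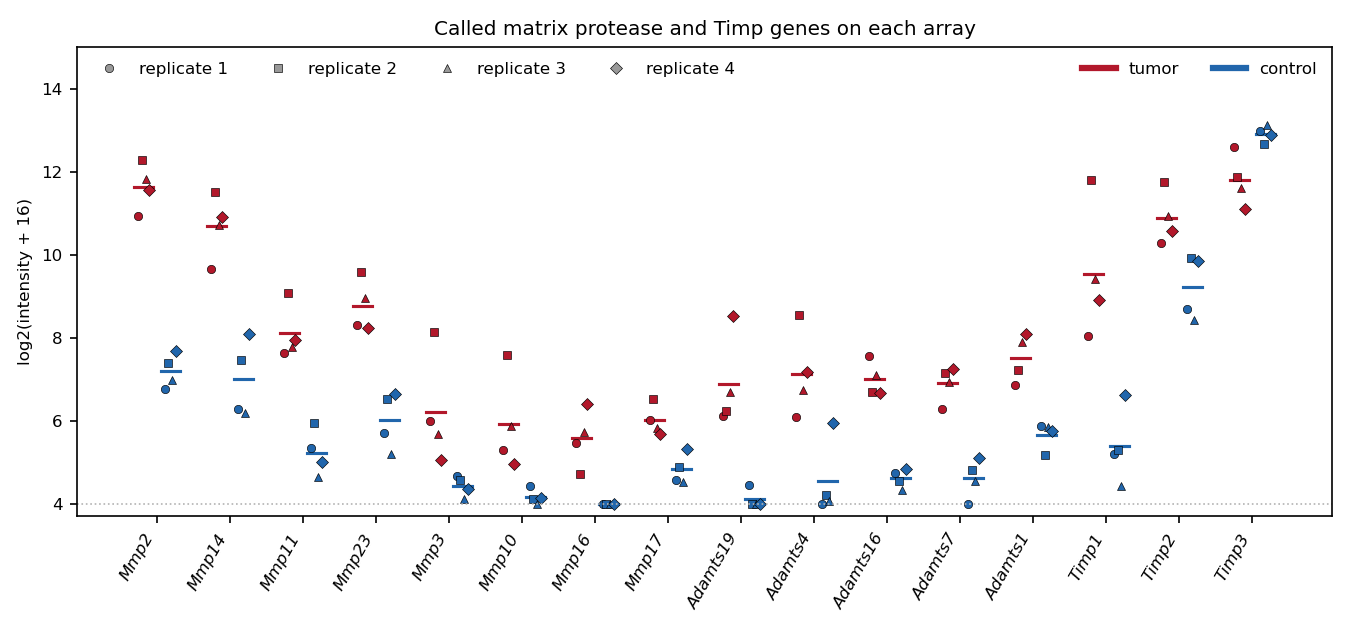
Intensity on each array, as log2(intensity + 16), of the brightest tested probe of the 16 called genes, with tumors in red to the left of controls in blue, the marker shape for the replicate number and a short line for the mean. The dotted line marks the floor of 4, and the groups do not overlap for any of these genes.

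Of the 14 Adamts genes 8 were tested, 5 rose (62.5%, against 31.9% of all genes tested) and 0 fell (against 12.1%). Adamts19 was tested only because the tumors were bright. Adamts1, Adamts4, Adamts5 and Adamts15 are proteases that cleave the large proteoglycans aggrecan and versican. Adamts4 had intensities of 51.7, 357, 91.9 and 129 in the tumors, against -1.30, 2.60, 0.900 and 45.3 in the controls. The lowest tumor was just above control 4, and the change was 2.58 ± 0.58 log2 units or 5.98-fold (adjusted p = 0.00827). Adamts1 read 101, 134, 222.5 and 259 in the tumors and 42.8, 19.9, 41.8 and 38.0 in the controls, a rise of 1.86 ± 0.31 log2 units or 3.63-fold (adjusted p = 0.00224). With a second, dimmer Adamts1 probe the change was 0.46 (adjusted p = 0.140). Adamts5 read 220, 207, 233 and 88.9 in the tumors and 86.1, 92.6, 90.4 and 118 in the controls. Tumor 4 was among the controls, and the change of 0.78 ± 0.29 did not pass (adjusted p = 0.0552). Adamts15 differed by 0.25 ± 0.28 (adjusted p = 0.503).

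Adamts16 and Adamts19 were near or under background in the controls. Adamts16 had intensities of 172, 87.8, 121 and 85.7 in the tumors, against 10.7, 7.60, 4.30 and 12.6 in the controls. Only control 4 was above background, and the rise was 2.38 ± 0.24 log2 units or 5.22-fold (adjusted p = 2.61e-04). Adamts19 read 53.7, 59.7, 86.7 and 350 in the tumors, with tumor 4 apart, and 6.0, -3.20, -5.30 and -1.90 in the controls. All controls were at or under background, and Adamts19 was at least 4.13-fold higher (adjusted p = 0.00284). Adamts7, which cleaves cartilage oligomeric matrix protein, read 62.0, 127, 107 and 136 in the tumors and -1.10, 12.3, 7.50 and 18.6 in the controls, a rise of 2.29 ± 0.30 log2 units or 4.87-fold (adjusted p = 8.10e-04).

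Adamts13, which cleaves von Willebrand factor, differed by 0.07 ± 0.23 (adjusted p = 0.838), with 1 tumor and 2 controls above background. Adamts18 was too dim on average to be tested, although it read 21.4 and 23.4 in tumors 3 and 4, above background there and on no other array. Adamts3, a procollagen protease, and Adamts8, Adamts12, Adamts17 and Adamts20 were at or under background on all 8 arrays.

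Both Adamtsl genes encode proteins of fibrillin microfibrils, and neither passed the test. Adamtsl2 had intensities of 110, 101, 126 and 185 in the tumors, against 37.7, 41.4, 48.8 and 158 in the controls. Control 4 lay among the tumors, and the change was 0.90 ± 0.38 log2 units (adjusted p = 0.0850). Adamtsl4 read 26.6, 90.0, 33.7 and 71.2 in the tumors and -2.90, 26.4, 7.70 and 47.6 in the controls, with overlap between the groups and a change of 1.06 ± 0.46 (adjusted p = 0.0936).

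The Timp genes moved in opposite directions. Timp1, the soluble inhibitor that is induced in inflammation and fibrosis, had intensities of 246, 3558, 661 and 464 in the tumors, against 21.0, 23.6, 5.40 and 83.0 in the controls. Tumor 2 was several times brighter than the other tumors, and all tumors were above all controls. The tumors averaged 1232 ± 1560 and the controls 33.2 ± 34.1 (SD, n = 4 each), a rise of 4.14 ± 0.77 log2 units or 17.7-fold (adjusted p = 0.00372). Without tumor 2 the rise was 3.39 log2 units or 10.5-fold (adjusted p = 0.00307). The second Timp1 probe rose by 4.63 ± 0.76 (adjusted p = 0.00221).

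Timp2 had intensities of 1220, 3411, 1938 and 1497 in the tumors, against 398, 954, 327.5 and 908 in the controls. The groups did not overlap, and the rise was 1.65 ± 0.43 log2 units or 3.15-fold (adjusted p = 0.0149). Timp3, which is bound to the matrix and also inhibits Adam and Adamts proteases, was the only member that fell. It read 6172, 3712, 3098 and 2176 in the tumors and 8017, 6468, 8921 and 7582 in the controls. Tumor 1 was only slightly below control 2, while tumors 2 to 4 were far below every control. The tumors averaged 3789 ± 1710 and the controls 7747 ± 1019 (SD, n = 4 each), and Timp3 fell by 1.12 ± 0.30 log2 units, or 2.18-fold (adjusted p = 0.0168). A second Timp3 probe fell by 1.79 ± 0.47 (adjusted p = 0.0153), although tumor 1, at 461, lay above control 2, at 342. Without control 3 the fall was 1.05 log2 units and was not called (adjusted p = 0.0507). Timp4, the Timp of heart and fat, was at or under background on all 8 arrays, with intensities of 6.30, 6.30, 0 and -2.40 in the tumors and -5.40, -0.5, -1.40 and 4.2 in the controls.

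**Figure D3:**
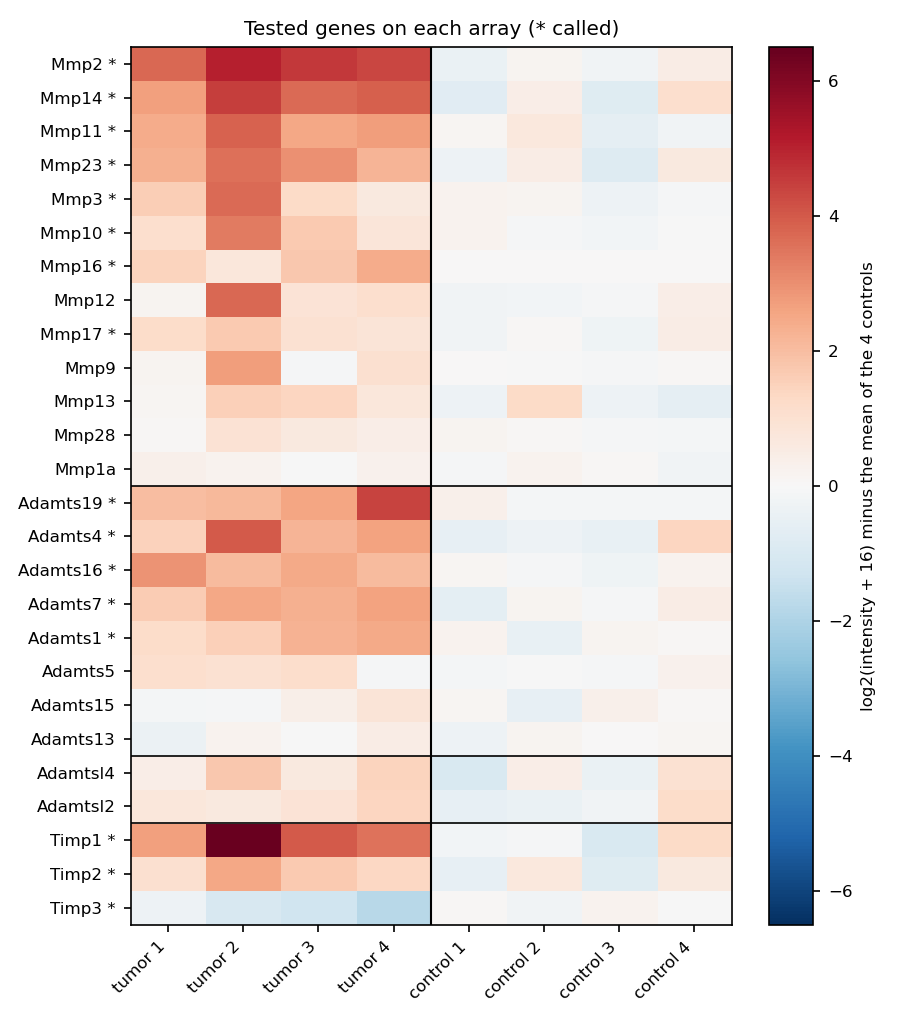
log2(intensity + 16) of the 26 tested genes on each array, minus the mean of the 4 controls for that gene, with tumors in the left columns and lines between families; a star marks called genes. Tumor 2 has the deepest red for Mmp2, Mmp14, Mmp3, Mmp10, Mmp12, Adamts4 and Timp1, tumor 4 for Adamts19, and Timp3 is blue in the tumors.

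The tumors were unequal. Of the 15 genes that rose, 10 were brightest in tumor 2, 4 in tumor 4 and 1 in tumor 1. Of all 3639 genes that rose, 22.4% were brightest in tumor 2, 47.6% in tumor 4, 20.3% in tumor 3 and 9.73% in tumor 1. Tumor 2 was the brightest for 7 of the 8 Mmp genes and for both Timp genes that rose, but for 1 of the 5 Adamts genes, 3 of which were brightest in tumor 4. The difference between the families was not tested. Tumor 1 was the dimmest tumor for 9 of the 15, and for 43.5% of all genes that rose. Without tumor 2, 15 member genes rose and 1 fell, and without tumor 1, 18 rose and 1 fell.

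Markers of other cell types were unequal between the tumors as well. The counts of called markers are to be read against the 31.9% higher and 12.1% lower among all genes tested. All 8 fibroblast markers rose, and their summed intensity was 20297 in tumor 2, 7754 to 10528 in the other tumors and 1079 to 3252 in the controls. Of these markers Col1a2 was tested only because the tumors were bright. Col1a1, Col1a2, Col3a1 and Dcn are counted again in the collagen and proteoglycan lists below. The summed intensity of 4 measured macrophage markers, which is mostly Lyz2 in the tumors, was 11249 in tumor 2 and 1651 to 2803 in the other tumors. In the controls it was 2754 in control 4, where Cd14 read 1560 and Lyz2 1088, and 342 to 356 in controls 1 to 3. Of 3 tested macrophage markers 2 rose, and Cd14 did not pass (limma adjusted p = 0.619). Smooth muscle markers summed to 17897 in tumor 2, 4100 to 4963 in the other tumors and 1143 to 2449 in the controls. Of their 5 tested genes 3 rose, and Cnn1 exceeded background on 0 of 8 arrays. Neutrophil markers summed to 2986 and 2359 in tumors 2 and 4 and to 95.0 and 578 in tumors 1 and 3. In control 4 they summed to 1885 and in the other controls to 77.6 to 384. None of 5 tested neutrophil markers passed (limma, 0 of 5), and Elane, Mpo and the neutrophil collagenase Mmp8 exceeded background on 0 of 8 arrays. Adipocyte markers summed to 1730 in tumor 2, 11.6 to 42.2 in the other tumors and 3.00 to 183 in the controls, with Plin1 and Fabp4 at or under background throughout. Cartilage markers summed to 153 to 768 in the tumors and 33.9 to 119 in the controls, with 2 of 4 tested genes higher, and skeletal muscle markers to 28.3 to 58.6 in the tumors and 3.5 to 29.0 in the controls. Endothelial markers summed to 2128 to 7450 in the tumors and 3194 to 6027 in the controls, and none of 6 passed (limma, 0 of 6). The part of these cells in the changes of the proteases and Timps was not tested.

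Whether the difference between tumors and controls depended on age was tested as an interaction, which rests on 1 tumor and 1 control at 5 weeks, so that the spread was estimated from the 4-month arrays alone and assumed to hold at 5 weeks. None of the 26 member genes was called by limma (0 with adjusted p under the threshold, 0 with unadjusted p under 0.05, lowest adjusted p = 0.610), against 1.5% of all genes tested. At that share a count of 0 among 26 says little about the members. Timp3 differed by -0.38 log2 units between the pair at 5 weeks and by -1.37 at 4 months, an interaction of 0.99 ± 0.52 (adjusted p = 0.610). Adamts1 differed by 1.00 at 5 weeks and by 2.15 at 4 months (interaction adjusted p = 0.619).

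Other genes of matrix breakdown were taken from 7 lists, whose counts are to be read against the 31.9% higher and 12.1% lower among all genes tested. Collagen genes and the procollagen proteases, which trim the precursor chains, included 7 rises and 0 falls among 9 tested genes, with a median of 2.95 log2 units (0.35 over all genes). Of the 7, Col1a2 and Col5a2 had control means under the filter and were tested only because the tumors were bright. Among probes above background on all 8 arrays 3 of 4 genes rose. Col1a1 and Col3a1, the chains of fibrillar collagens, rose by 4.60 ± 0.39 (adjusted p = 1.29e-04) and 3.65 ± 0.37 (adjusted p = 2.57e-04), and a second Col3a1 probe changed by 1.87. Of 6 tested proteoglycans and microfibril proteins, which are substrates of the Adamts and Mmp enzymes, all 6 rose, with a median of 2.01. Vcan and Fbn2 were likewise tested only through the tumors, and 4 of the 10 measured genes of this list were too dim to be tested. Among probes above background on all 8 arrays 3 of 3 rose. Eln, elastin, rose by 3.36 ± 0.25 (adjusted p = 8.06e-05) and Ltbp1, a microfibril protein that stores TGF-beta, by 2.54 ± 0.46 (adjusted p = 0.00342). A second Ltbp1 probe differed by 0.11.

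Of 8 tested regulators of matrix metalloproteases 6 rose (75.0%) and 2 fell (25.0%), with a median of 1.31. Lcn2, which binds Mmp9, rose by 3.39 ± 0.77 (adjusted p = 0.00821), with 836 in control 4 against 34.9 to 131 in the other controls and 884 to 2830 in the tumors. Thbs2, a thrombospondin that binds Mmp2 and aids its clearance, rose by 3.25 ± 0.59 (adjusted p = 0.00342). Bsg, a membrane inducer of Mmp genes, fell and was at or under background in the tumors, at least 1.23-fold lower (adjusted p = 0.0375). This Bsg probe was dim in the controls as well, at 20.1 to 27.2, and a second Bsg probe differed by -0.51. Under some alternatives 1 gene of this list fell in place of 2. Furin, the convertase that activates Mmp11, Mmp14 and Adamts precursors, fell by 0.71 ± 0.18 (adjusted p = 0.0137), while Reck, a membrane inhibitor of Mmp2, Mmp9 and Mmp14, rose by 1.29 ± 0.22 (adjusted p = 0.00291). Furin, Reck, Bmp1 and Mme are named outside the rule for these lists, after their values were seen. Bmp1, the procollagen C-proteinase, rose by 3.22 ± 0.35 (adjusted p = 3.61e-04), although 1 of its 3 other probes differed by 0.31.

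In the plasminogen activator system 2 of 5 tested genes fell and 0 rose, with a median of -0.53, against 12.1% lower and 31.9% higher among all genes. Plau, the urokinase that the kidney tubule secretes, fell to 903, 642, 682.5 and 178 in the tumors, against 2844, 3215, 3188 and 2540 in the controls, a change of -2.46 ± 0.44 (adjusted p = 0.00304). Serpinf2, the inhibitor of plasmin, fell by 3.96 ± 0.73 (adjusted p = 0.00361). Meprins are metalloproteases of the proximal tubule brush border, and Mep1a and Mep1b fell by 4.98 ± 0.65 (adjusted p = 8.31e-04) and 2.99 ± 0.89 (adjusted p = 0.0248), while neprilysin (Mme) differed by -0.01 (adjusted p = 0.982). All 7 measured proximal tubule markers fell as well. Of 8 tested Adam proteases, the membrane relatives of Adamts, 3 rose (37.5%, near the 31.9% of all genes) and 0 fell, with a median of 0.74. Adam19 rose by 2.68 ± 0.37 (adjusted p = 0.00108), and Adam12, tested only through the bright tumors, was at least 2.13-fold higher (adjusted p = 9.63e-04). Of 11 tested cathepsins and cystatins, the lysosomal proteases and their inhibitors, 2 rose (18.2%, against 31.9% of all genes) and 1 fell (9.09%, against 12.1%), with a median of 0.15. Ctsk, a cathepsin that degrades collagen, rose by 2.92 ± 0.52 (adjusted p = 0.00313) and Ctss by 1.31 ± 0.41 (adjusted p = 0.0315), and Ctsh fell by 0.92 ± 0.23 (adjusted p = 0.0135).

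**Figure D4:**
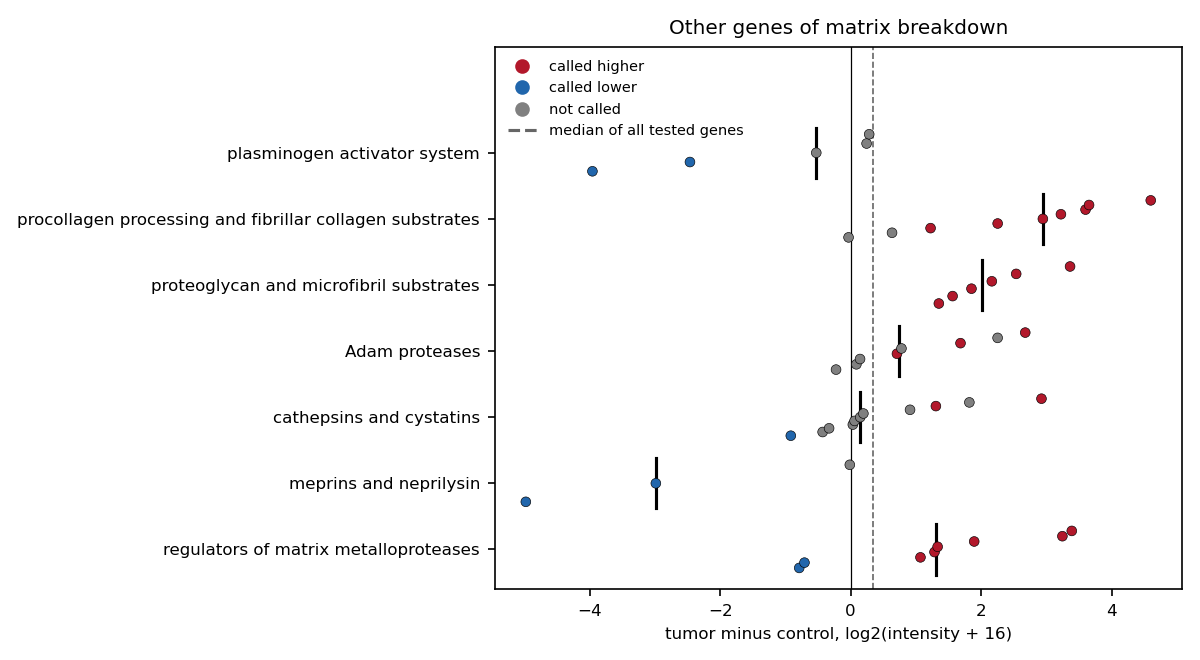
Difference between tumors and controls in log2(intensity + 16) for each tested gene of 7 lists of matrix breakdown, with red for called higher, blue for called lower, grey for genes that did not pass, a black bar for the median of each list and a dashed line for the median of all tested genes. Collagen and proteoglycan substrates lie to the right with medians of 2.95 and 2.01, and the meprin list to the left with a median of -2.99.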

How the data were processed

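Total RNA of 8 samples was measured on Illumina bead arrays. The deposited values are intensities. Background subtraction and scaling were read from the values, and no source used here names the software. A second deposited table, not normalized, was left out, since its 16 value columns have names that match no sample. Negative intensities were replaced by 0, and log2 was taken after adding 16. The noise of an array was 1.4826 times the median size of its negative values. Probes whose log2 values averaged below the 40th percentile (10279) were dropped, and limma 3.58.1 (R 4.3.3, eBayes moderation, two-sided, without covariates) was fitted to the remaining 15418, with Benjamini-Hochberg adjustment. Of all probes 23978 had 1 symbol in the platform annotation, 0 several and 1719 none, and gene numbers changed 0 symbols. Where every array of a group was at or under background, "at least" sets the brighter mean against the mean, over the dim arrays, of the limit or the signal, whichever was higher. Array values are given for called members and all Timps. Outside this rule they are also given for Mmp9, Mmp12, Mmp13, Adamts5, Adamtsl2 and Adamtsl4, which were not called. From each further list the text names up to 2 called genes with the greatest change along the list's direction and 1 against it. Exceptions are marked. Members and lists were chosen with earlier results of these data known. Alternatives covered scaling, the added constant, the filter, array weights, age, a replicate block and leaving out arrays. The fit was tested on simulated data. With 4 arrays a group, precision is limited by their number.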

Additional observations from a re-analysis of the deposited data

Results flagged for a closer look

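Among the 28 groups of 4 arrays examined for the named genes, 6 held an array far from the other 3 on the linear scale. This was judged by the gap to the nearest array over the range of the group (Dixon's test at 95%). The rate of about 1 in 20 groups flagged by chance holds for normally distributed values, which linear intensities need not be. The log2 values used for the other tests were not examined in this way. For 4 genes the array apart was tumor 2. Mmp10 read 175 there and at most 42.3 in the other tumors, and Mmp11 read 528 against at most 230. Mmp3 read 264.5 against at most 48.3, and Timp1 read 3558 against at most 661. Adamts19 read 350 in tumor 4 and at most 86.7 in the other tumors. Adamts4 read 45.3 in control 4 and at most 2.60 in the other controls. Without tumor 2 the changes of Mmp10, Mmp11, Mmp3 and Timp1 were 1.20, 2.55, 1.16 and 3.39 log2 units and each was still called. Without tumor 4 Adamts19 changed by 2.23, and without control 4 Adamts4 changed by 3.04, both still called.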

How the results depend on the processing

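Alternatives were run gene by gene for the 16 called members only, and none of these changed direction. Of 374 gene and alternative pairs, 352 kept their call and 22 lost it, all of them of Mmp3 (13), Mmp10 (6), Mmp17 (2) and Timp3 (1). The number of member genes higher was 15, and 6 of 11 when only probes above background on all 8 arrays were tested, since fewer genes were then tested. Leaving out each array in turn gave 13 to 18 genes higher and 0 to 1 lower, the 0 being without control 3. Leaving out tumor 1 and control 2 together, a setting chosen after seeing the data, gave 16 and 1. That setting removes the only control with the Xist and Kdm5d pattern of the tumors, so that sex markers and group then coincide. Array weights gave 21 and 1, and with them more of all genes rose as well. Of all genes, 31.9% were higher and 12.1% lower. With cyclic loess these were 18.6% and 18.5% (2118 and 2106 genes in place of 3639 and 1378), and with no filter 17.6% and 5.93%. With quantile normalization 20.7% were higher and with normexp correction 20.4%. With array weights 5439 of 11413 genes were higher, in place of 3639, and 18.1% were lower. The age interaction called 0 member genes, and 1 with no filter, Adamts8, which was at or under background on all arrays. With the replicate number as a block 18 member genes rose and 1 fell, the added calls being Adamtsl2 (adjusted p = 0.0241), Adamtsl4 (0.0126) and Mmp13 (0.0384). Deviations of same-numbered tumors and controls from their group means correlated at 0.211, 0.225, 0.128 and 0.0689, not all over 0.1, so the numbers were not taken to pair the samples. Of the counts for the other lists, 295 stayed within 1.5 times under the alternatives and 41 did not. Dim genes are limited by signal over background.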

Other observations

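Several members were seen by more than 1 probe, and the probes did not always give the same picture. Of the 40 genes 30 had 1 probe, 7 had 2 and 3 had 3. Mmp13 was above background on all 8 arrays with its brightest probe, while a second was above it in tumor 1 alone and another on no array. Mmp28 was above background on 7 arrays with 1 probe and on 0 with the other. Adamts13 was above background on 3 arrays with its brightest probe, and its other probes, at or under background on every array, were not tested. The Mmp1a probes gave changes of 0.19 and 0.14 log2 units.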
